A study of Marchantia polymorpha with 6 samples.

Results

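A group of 72 genes had reads in every library of wild-type Tak-1 thalli and next to none in thalli of the mutant Mpbes1. They were selected from the raw counts of 19287 gene models of Marchantia polymorpha by 2 limits, at least 10 counts in each of the 3 Tak-1 libraries and at most 3 counts over the 3 Mpbes1 libraries together. Tak-1 is the male wild-type accession. Mpbes1 is a mutant generated with CRISPR/Cas9 in the gene of the transcription factor BES1, and neither its allele nor the number of independent lines is given in the sources used here. The labels do not give its genetic background either, and a difference of background from Tak-1 was not tested. Plants of both groups were 30 days old and untreated, and each library came from the thallus of a different plant, apical notches included, with 3 plants per genotype. Library totals lay between 11597664 and 17741253 counts.

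The thallus is the flat, haploid main body of a liverwort, so each nuclear gene is present in a single dose and no second allele contributes reads. BES1 belongs to the BES1/BZR1 family of transcription factors. In flowering plants such as Arabidopsis these proteins act at the end of the brassinosteroid pathway, where GSK3-like kinases restrain them, and they both activate and repress genes. None of the deposited identifiers could be paired with a gene name (0 of 19287 occur in the reference table), so the genes are described by identifier, position, structure and level, with no statement on their function. For the same reason the thallus label could not be checked against marker genes. In whole thalli, fewer cells of a type and less RNA per cell cannot be told apart.

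The counts in both genotypes were what defined the group, so its absence from Mpbes1 is a description and carries no test. Of the 72 genes, 29 had 0 counts over all 3 Mpbes1 libraries, 17 had 1 count, 13 had 2 and 13 had 3. The 72 genes together took 4869, 5324 and 4323 counts in the Tak-1 libraries and 19, 25 and 38 counts in the Mpbes1 libraries. In CPM, counts set to a common library size with scaling by the TMM method, these were 361, 415 and 384 in Tak-1 and 1.61, 1.96 and 2.10 in Mpbes1. The remaining reads were spread thinly, over 15, 17 and 25 of the genes in the 3 mutant libraries. The deepest mutant library, the third with 17741253 counts, had the most genes with a read.

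Genes on either side of the limits overlapped in level. The 13 genes with 3 counts in Mpbes1 had Tak-1 levels of 1.07 to 13.9 CPM with a median of 4.14 CPM. The 12 genes left outside by 4 counts had levels of 1.02 to 12.8 CPM, with a lower median of 1.51 CPM. The strongest of the excluded genes, Mapoly0023s0160.v3.1, had 185, 148 and 149 counts in Tak-1 and 1, 1 and 2 in Mpbes1. At the other limit, 4 genes were included with 10 counts in their lowest Tak-1 library and 4 were excluded with 9. In the fit of all genes, the quasi-likelihood test of edgeR, Benjamini-Hochberg adjusted over 12313 genes, called 21.1% of them lower in Mpbes1, and 7.16% at least 2-fold lower. Of the 72 genes 69 passed the filter on low counts and 68 were called lower, which their selection on the same contrast brings about. Mapoly0009s0084.v3.1, Mapoly0117s0044.v3.1 and Mapoly0132s0056.v3.1 did not pass the filter, and Mapoly0137s0004.v3.1 passed it without a call, though DESeq2 and the fit with a replicate block called it. With library sizes alone in place of TMM, again 68 of the 69 tested genes of the group were called lower.

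The selection was repeated with libraries held out, as a description. Genes were chosen again from 2 Tak-1 and 2 Mpbes1 libraries, with at least 10 counts in each of the first and at most 2 over the second, and then read in the held-out library of each genotype. Over the 9 combinations this took 74 to 107 genes. In the held-out Tak-1 library 85.9% to 94.9% of them again had at least 10 counts. In the held-out Mpbes1 library 58.9% to 87.0% had at most 1 count, and the highest count was 6 to 17. Both limits were met by 53.3% to 79.7% of the genes chosen, with a median of 68.9%. A gene that met both belongs to the group by its definition, and the 9 combinations share libraries, so they are not independent of each other. Most of the genes so chosen thus had at most 1 read in the mutant library not used to choose them, while a part carried more. The same reading over all gene models was not made.

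The genes were weakly expressed where they were detected, which the selection favours. A strong gene can exceed 3 counts over Mpbes1 even after a large fall. Mapoly0088s0032.v3.1, for example, fell from 60.3 to 0.368 CPM and was left out. Their mean Tak-1 levels ran from 0.877 to 22.2 CPM, with a median of 3.30 CPM and quartiles at 2.01 and 6.0 CPM. At least 10 CPM was reached by 13 genes, at least 5 CPM by 22 and at least 1 CPM by 69. Not 1 of the 72 reached the median Tak-1 level of all genes tested, 31.8 CPM, and the strongest ranked 7406 among the 19287 models. Per kilobase of exon the median was 2.10 CPM per kb, against 12.7 CPM per kb over all genes tested. The 10 strongest genes held 42.7% of the group's Tak-1 counts. These levels bound the folds that could be seen: with Mpbes1 set no lower than 3 counts over its 3 libraries, 0.0704 CPM, the fold of Tak-1 over Mpbes1 ran from 12.5 to 316 with a median of 46.8.

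**Figure D1:**
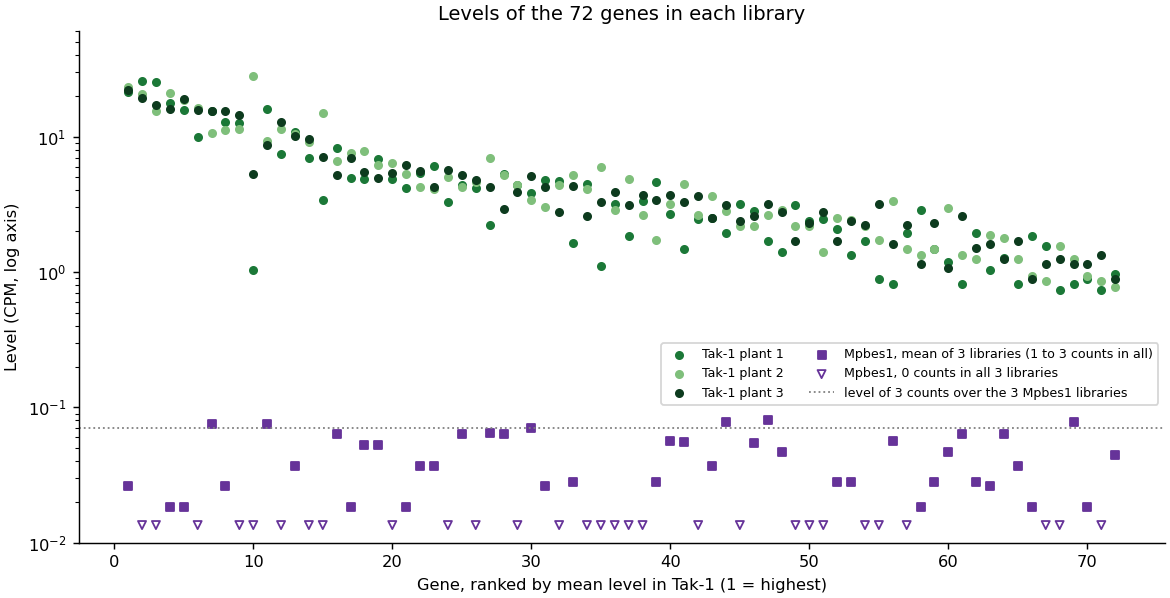
Level in CPM on a log axis of each of the 72 genes, ranked by mean Tak-1 level; green points are the 3 Tak-1 plants, purple squares the mean of the 3 Mpbes1 libraries for the 43 genes with 1 to 3 counts there, and open triangles the 29 genes with 0 counts, drawn at the foot of the plot; the dotted line is the level of 3 counts over the Mpbes1 group. Tak-1 levels decline from 22.2 to 0.877 CPM and stay above those of Mpbes1 throughout, which the selection fixes, and the gene of rank 10 has the widest spread between plants.

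The strongest gene was Mapoly0048s0057.v3.1, on the minus strand of scaffold_48 from 546122 to 548842, with 5 exon blocks (exons of all isoforms, merged where they overlap). It had 288, 296 and 250 counts in Tak-1 and 0, 1 and 0 in Mpbes1. Its Tak-1 level was 22.2 ± 0.86 CPM (SD, n = 3), so the plants differed little. The ratio of Tak-1 to Mpbes1 from the summed counts was 946, with a 95% counting interval of 169 to 37424 that covers counting error only. The width of the interval comes from the single mutant read.

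Mapoly0027s0190.v3.1 (scaffold_27, 1820191 to 1821352, minus strand, a single exon block) had 347, 265 and 219 counts in Tak-1 and none in Mpbes1. Against the level of 3 counts over the mutant group it was at least 312-fold higher in Tak-1. Mapoly0088s0035.v3.1, also with 1 exon block, on the plus strand of scaffold_88 from 376329 to 376947, had 343, 198 and 193 counts and none in Mpbes1. It was at least 275-fold higher in Tak-1. With only 619 bases of exon it had the highest level per length of the group, 31.2 CPM per kb, ahead of Mapoly0027s0190.v3.1 at 18.9 and Mapoly0084s0009.v3.1 at 18.3 CPM per kb. In CPM the first plant stood above the other 2 for both genes on scaffold_27 and scaffold_88.

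Mapoly0084s0009.v3.1, on the minus strand of scaffold_84 from 56777 to 57778, had 240, 271 and 180 counts in Tak-1 and 0, 0 and 1 in Mpbes1, a ratio of 784 with a counting interval of 140 to 31014. Mapoly0093s0063.v3.1, with 2 exon blocks on the plus strand of scaffold_93 from 622265 to 623613, had 213, 240 and 212 counts and 0, 0 and 1. Its plants were close together, at 17.8 ± 1.71 CPM (SD, n = 3). Mapoly0048s0056.v3.1, the neighbour of the strongest gene on the same strand of scaffold_48 from 532973 to 535730, had 133, 209 and 177 counts in Tak-1 and none in Mpbes1. In CPM its first plant was the lowest, as it was for the adjacent Mapoly0048s0057.v3.1, though there the plants lay closer together.

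The next genes by level came from separate scaffolds and had more varied structures. Mapoly0008s0097.v3.1, 7 exon blocks on the plus strand of scaffold_8 from 1132595 to 1135155, had 208, 136 and 175 counts in Tak-1 and 2, 0 and 1 in Mpbes1, a ratio of 196 (counting interval 66.8 to 955). Mapoly0211s0017.v3.1, on the minus strand of scaffold_211 from 124137 to 129438, had 174, 143 and 173 counts against 0, 1 and 0. Its exon length of 4814 bases made its level per length modest, 2.73 CPM per kb. Mapoly0004s0311.v3.1, 3 exon blocks on the plus strand of scaffold_4 from 3186123 to 3187578, had 171, 145 and 162 counts and none in Mpbes1, so it was at least 182-fold higher in Tak-1.

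The tenth by level was unlike the rest. Mapoly0137s0004.v3.1, 2 exon blocks on the plus strand of scaffold_137 from 51585 to 54277, had 14, 362 and 60 counts in the 3 Tak-1 plants and 0 in each Mpbes1 library. The second plant, at 28.2 CPM, was the highest value of any of the 72 genes in any library, and the first, at 1.04 CPM, was among the low ones. Its mean of 11.5 ± 14.6 CPM (SD, n = 3) rests on that plant. It was the gene without a call in the fit of all genes, but it was called lower by DESeq2, with a replicate block and without the first Tak-1 plant. That plant is the one with 14 counts. Without the second or the third Tak-1 plant 69 of the 70 genes of the group then tested were called lower. Without any 1 Mpbes1 library 71 of 72 were, so other settings also left a gene without a call.

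Spread between the 3 wild-type plants was wider for these genes than for other tested genes in the same range of count, which mostly had higher counts within it. The SD over the mean was 22.9% at the median, where counting error alone gives 15.6%. Taking the counting part out left a median of 16.5%, and in 15 of the 72 nothing was left. For the 4541 other tested genes in the same range of mean count, 11 to 278, the median was 13.1% before and 7.54% after the counting part was taken out. Counting error alone gave 9.38% for them, and in 1630 of the 4541 nothing was left. The groups are thus not matched by count, and part of the contrast before that step is counting error. An excess over counting of more than 30% was found for 15 of the 72 genes (20.8%) and for 7.77% of the others. The 532 of those others that were at least 2-fold lower in Mpbes1 had a median excess of 16.6%, close to that of the 72. The spread is therefore not shown to be peculiar to genes that reach 0 in the mutant. The limit of 10 counts in every Tak-1 library also kept out the most variable weak genes.

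**Figure D2:**
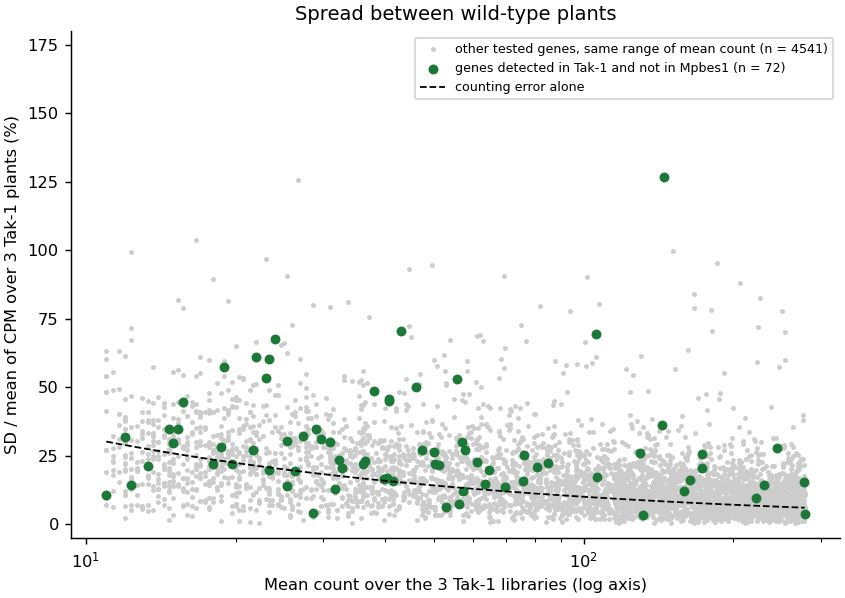
SD over mean of CPM in the 3 Tak-1 plants, in percent, against the mean count on a log axis, for the 72 genes (green) and 4541 other tested genes in the same range of counts (grey); the dashed line is counting error alone. Most green points lie above the line, and Mapoly0137s0004.v3.1 at 127% is the highest.

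The steadiest gene with a mean of at least 30 counts was Mapoly0099s0013.v3.1, with 5 exon blocks on scaffold_99. Its counts of 146, 135 and 114 corresponded to 10.8, 10.5 and 10.1 CPM, a spread of 3.39% where counting error alone gives 8.71%. Among the most variable with such counts were the adjacent genes Mapoly0097s0012.v3.1 and Mapoly0097s0013.v3.1. The first had 15, 77 and 37 counts and the second 46, 192 and 80, with spreads of 70.7% and 69.5%. Both had their highest value in the second plant and their lowest in the first. The same order held for Mapoly0137s0004.v3.1, Mapoly0047s0004.v3.1 (30, 89 and 48 counts), Mapoly0177s0022.v3.1 (22, 67 and 49), Mapoly0107s0020.v3.1 (20, 57 and 37) and Mapoly0037s0089.v3.1 (25, 62 and 35). Mapoly0088s0034.v3.1, with 62, 22 and 38 counts and a spread of 44.8%, ran the opposite way. The order did not hold for the group as a whole, where the highest plant was the first for 22 genes, the second for 23 and the third for 27. Of the 4541 other genes in the same range of count, 40.0% were highest in the second plant, and of the 532 at least 2-fold lower in Mpbes1 55.1% were. That plant's part in the spread of these genes was not tested.

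On the scaffolds the 72 genes were mostly scattered. They lay on 54 scaffolds, 41 of which held a single one, and 0 lay on the sequences of the male sex chromosome. The table has 113 of its 19287 models there, a share so small that 0 of 72 does not show fewer than elsewhere. How many of the 113 had at least 10 counts in each Tak-1 library is not given here, and whether Mpbes1 carries that chromosome was not tested. MapolyY_A0058.v3.1, a model of that chromosome by its identifier, was just outside the limit, with 13, 16 and 13 counts in Tak-1 and 1, 2 and 1 in Mpbes1. Of the 72, only 2 lay on short scaffolds with at most 5 gene models (2.78%, against 2.22% of all genes tested). Mapoly1410s0001.v3.1 and Mapoly0271s0001.v3.1 are these 2, with 12, 22 and 36 counts and 23, 28 and 25 counts in Tak-1. Among the others 11 genes stood directly beside another of the group, in 5 clusters with 6 adjacent pairs.

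The largest cluster held 3 genes on scaffold_88. Mapoly0088s0033.v3.1 (368936 to 371990) had 36, 41 and 42 counts in Tak-1, and Mapoly0088s0034.v3.1 (372084 to 373572) had 62, 22 and 38, while Mapoly0088s0035.v3.1 is the third-strongest gene given above. The first pair share a strand and are 93 bases apart, and the last lies on the opposite strand. Before them in scaffold order, Mapoly0088s0032.v3.1 exceeded the limit for Mpbes1 but was also much lower there: it had 976, 762 and 553 counts in Tak-1 and 7, 3 and 5 in Mpbes1, and fell from 60.3 ± 11.7 to 0.368 ± 0.195 CPM (SD, n = 3; log2 fold change -7.38, edgeR adjusted p = 3.5e-08). On the far side, Mapoly0088s0036.v3.1 stood at 80.4 ± 10.8 CPM in the wild type and at 80.2 ± 9.81 CPM in the mutant (SD, n = 3; edgeR adjusted p = 1). On that side the run of much lower genes thus ended at a gene of equal level in both genotypes. Beyond that gene, Mapoly0088s0039.v3.1 was lower again, with 16, 12 and 13 counts in Tak-1 and 4, 8 and 3 in Mpbes1 (log2 fold change -1.59, edgeR adjusted p = 0.018). Mapoly0088s0005.v3.1 and Mapoly0088s0042.v3.1 lie farther off on the same scaffold.

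Scaffold_48 held 2 separate pairs. Mapoly0048s0056.v3.1 and Mapoly0048s0057.v3.1 are 10391 bases apart, and the next model, Mapoly0048s0058.v3.1, had 40.7 ± 1.05 CPM in the wild type against 36.8 ± 1.39 CPM in the mutant (SD, n = 3), a difference that edgeR did not call (adjusted p = 0.13). In the other pair, Mapoly0048s0086.v3.1 (33, 34 and 41 counts in Tak-1) and Mapoly0048s0087.v3.1 (93, 117 and 109) face each other 2380 bases apart on opposite strands. Both had 0 counts in Mpbes1. Mapoly0048s0085.v3.1 beside them had 1, 10 and 14 counts in Tak-1 and 0 in Mpbes1, too few in 1 library for the limit. The models that flank these 3, Mapoly0048s0084.v3.1 and Mapoly0048s0088.v3.1, had 160 and 76.5 CPM in Tak-1 against 146 and 77.9 CPM in Mpbes1, neither with a call by edgeR (adjusted p = 0.13 and 0.79).

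The remaining clusters were pairs on scaffold_97 and scaffold_132. Mapoly0097s0012.v3.1 and Mapoly0097s0013.v3.1, 6180 bases apart on opposite strands, had 0 counts in Mpbes1. They were flanked by Mapoly0097s0011.v3.1, which had no read in any library, and by Mapoly0097s0014.v3.1, at 166 ± 13.9 CPM in wild-type and 154 ± 2.08 CPM in mutant thalli (SD, n = 3; edgeR adjusted p = 0.23). On scaffold_132, Mapoly0132s0056.v3.1 (13, 10 and 10 counts) and Mapoly0132s0057.v3.1 (60, 53 and 29) were the other pair, on opposite strands. In Mpbes1 the first had 0, 1 and 1 counts and the second none.

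**Figure D3:**
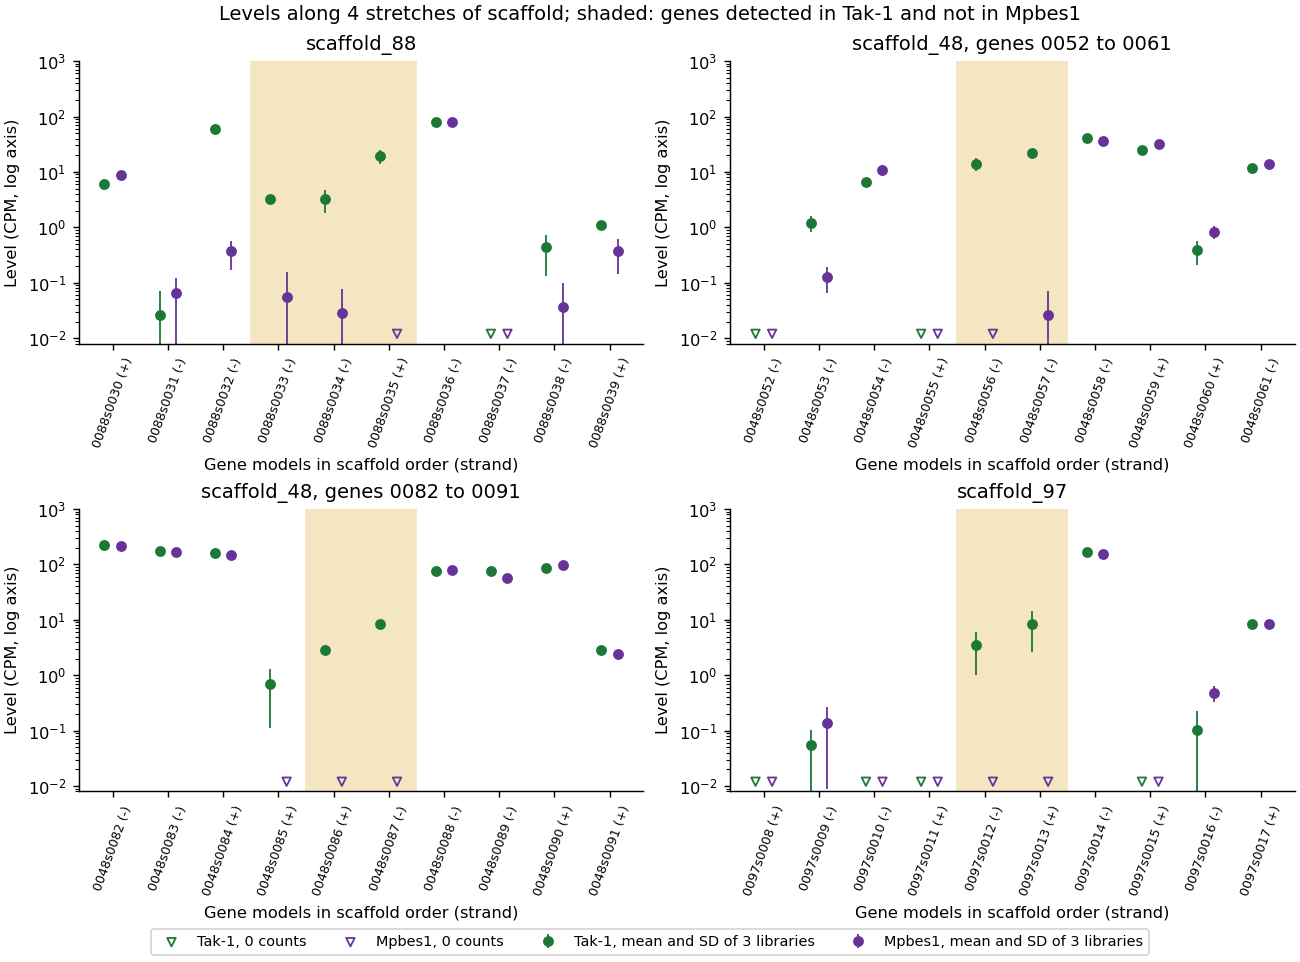
Mean level and SD over 3 libraries, in CPM on a log axis, of neighbouring gene models in scaffold order along 4 stretches, in Tak-1 (green) and Mpbes1 (purple); open triangles are groups with 0 counts and shading marks genes of the group of 72. In each stretch the shaded genes are bordered on at least 1 side by a gene of similar level in both genotypes, such as Mapoly0088s0036.v3.1 with 80.4 and 80.2 CPM.

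The neighbours were also examined for the group as a whole. Their values did not select the 72, but leaving out adjacent members removed the neighbours that met the limits themselves. The nearest model on each side, members of the group left out, gave 123 neighbours. Of these, 27 had no read in any library (22.0%, against 15.7% of all models), 26 had too few reads to be tested and 70 were tested. In Mpbes1, 26 of the 70 were lower (37.1%) and 12 were higher (17.1%), where 21.1% and 19.3% of all genes tested were called in these directions by edgeR. At least 2-fold lower were 16 (22.9%, against 7.16% of all genes tested) and at least 2-fold higher 3 (4.29%, against 4.55%). The median log2 fold change of the tested neighbours was -0.12, and that of all genes tested was 0.01. Lower neighbours were thus more frequent than in the table at large, while most neighbours had no call for a lower level. The background was not matched to the neighbours by level. Among the 4541 other tested genes in the count range of the 72, 532 were at least 2-fold lower. No enrichment test was run on these shares. Of the 72 genes, 15 had a neighbour with at least 30 counts over the Mpbes1 libraries on both sides, 32 on 1 side and 25 on neither. Such counts were found for 50.4% of the neighbours and 62.8% of all models.

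**Figure D4:**
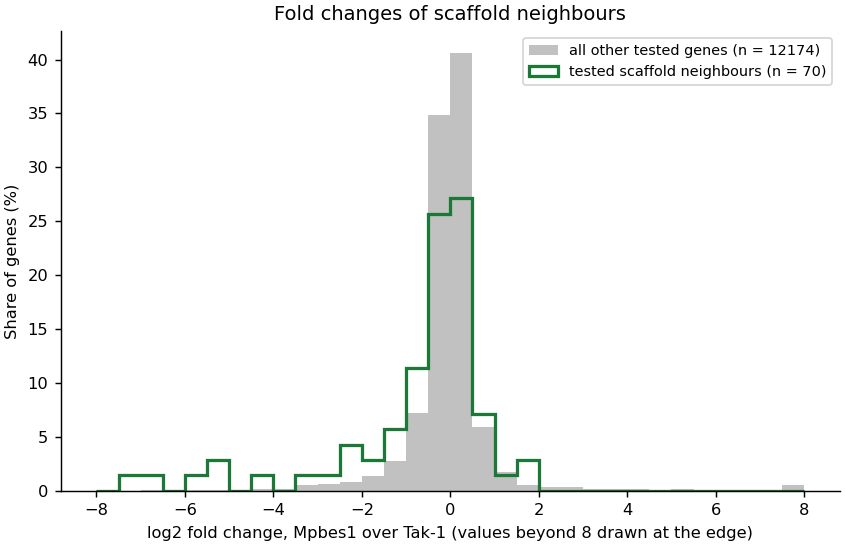
Share of genes, in percent, by log2 fold change of Mpbes1 over Tak-1 for the 70 tested scaffold neighbours (green outline) and for the other tested genes outside the group (grey); values beyond 8 are drawn at the edge. Both peak near 0, and the neighbours have a longer tail to the left, with 16 of 70 at least 2-fold lower.

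Several neighbours were much lower in Mpbes1 without meeting the limits of the group, here named after their values were seen. Mapoly0043s0075.v3.1, beside Mapoly0043s0074.v3.1, had 255, 167 and 192 counts in Tak-1 and 0, 3 and 4 in Mpbes1, a log2 fold change of -6.56 (edgeR adjusted p = 2.3e-07). Mapoly0037s0088.v3.1, beside Mapoly0037s0089.v3.1, had 3, 4 and 8 counts in Mpbes1 and fell from 21.9 ± 4.61 to 0.337 ± 0.097 CPM (SD, n = 3; edgeR adjusted p = 4.9e-08). Mapoly0047s0003.v3.1, beside Mapoly0047s0004.v3.1, had 5, 16 and 52 counts in Mpbes1 and fell from 56.2 ± 13.8 to 1.52 ± 1.25 CPM (SD, n = 3; edgeR adjusted p = 0.00019). These 3 kept their call whichever library was left out.

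Mapoly0121s0008.v3.1, beside Mapoly0121s0007.v3.1, was lower as well, with 60, 462 and 228 counts in Tak-1 and 13, 2 and 8 in Mpbes1 (edgeR adjusted p = 0.011). Its call was lost without the second or the third Mpbes1 library, where the adjusted p was at most 0.082. Its member neighbour, with 11, 43 and 18 counts in Tak-1, was likewise highest in the second plant. In the opposite direction, Mapoly0099s0014.v3.1 rose from 16.2 ± 2.28 to 55.9 ± 4.68 CPM (SD, n = 3; edgeR adjusted p = 5.1e-07), beside the steady Mapoly0099s0013.v3.1 with 2 counts in Mpbes1. On scaffold_10, where Mapoly0010s0080.v3.1 (59, 56 and 44 counts in Tak-1) and Mapoly0010s0082.v3.1 (216, 119 and 97) lie with 1 silent model between them, the model 3 places on, Mapoly0010s0085.v3.1, had 3, 0 and 1 counts in Tak-1 and 1657, 1488 and 3150 in Mpbes1.

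Most of the gene models had few exons. A single exon block was found in 21 of the 72 (29.2%), 2 in 19, 3 to 5 in 24, 6 to 10 in 6 and over 10 in 2. With 1 or 2 blocks the share was 55.6%, against 28.9% of all genes tested, 40.8% of the 4610 tested genes in the same range of Tak-1 counts (69 of the group among them) and 50.0% of the 62 genes with the mirrored pattern, detected in Mpbes1 and not in Tak-1. The difference from all genes tested is thus smaller among genes in that range of counts. Their median Tak-1 level, 8.92 CPM, was still above the 3.30 CPM of the 72. Of the 814 other genes at least 2-fold lower in Mpbes1, 44.7% had 1 or 2 blocks, and their median exon length was 2030 bases. These shares were not tested. The exons of the 72 summed to a median of 1540 bases, less than the 2053 bases of tested genes in that range of counts and more than the 1069 bases of the mutant-only genes. Models with introns had a median of 663 intron bases, against 1102 and 438 in the same comparisons.

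The range of structures was wide. Mapoly0003s0127.v3.1 had the most exon blocks, 16, on the plus strand of scaffold_3 from 1285037 to 1290588, with 16, 38 and 12 counts in Tak-1 and 1, 0 and 1 in Mpbes1. Mapoly0093s0054.v3.1 had the longest span, 6763 bases with 10 exon blocks, and 43, 37 and 44 counts in Tak-1 with none in Mpbes1. Mapoly0015s0192.v3.1 had the longest exons in sum, 5161 bases in 11 blocks, and 73, 54 and 63 counts against 0, 0 and 2. The shortest model, Mapoly0001s0563.v3.1, had 1 block of 465 bases and 44, 65 and 64 counts against 0. A model on the opposite strand overlapped 1 of the 72, Mapoly0088s0005.v3.1, and reads of the 2 may be mixed: the library kit keeps the strand, but whether the counting used it is not given in the sources used here.

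A comparison made after the data were seen looked for other models with the same exon layout. Of the 72, 23 had at least 4 exon blocks, and 11 of these (47.8%) had another model in the table with the same number of blocks and identical lengths of every internal block, in the order of transcription. Over all models with at least 4 blocks the share was 5.58% (482 of 8632). With at least 5 blocks, so at least 3 internal ones, it was 5 of 14 (35.7%) against 3.37%. These shares were not matched by number of blocks, and each further internal block is 1 more length that has to match. Over 10 blocks were found in 2 of the 72 and in 2630 of all 19287 models, so part of the contrast can come from that. Shared layout does not show shared sequence, which was not analysed here, and if such models are near-identical copies their reads could have been dropped or split in counting, so values within such sets are uncertain.

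The largest set of the group's own genes had 5 blocks with internal lengths of 195, 179 and 274 bases. It holds 6 models, among them Mapoly0048s0056.v3.1, Mapoly0048s0057.v3.1 and, on scaffold_127, Mapoly0127s0004.v3.1 with 101, 145 and 144 counts in Tak-1 and 0 in Mpbes1. Another, Mapoly0048s0053.v3.1, is near the pair on scaffold_48 and fell from 11, 20 and 14 counts to 2, 2 and 1 (edgeR adjusted p = 0.0007). By contrast, Mapoly0274s0001.v3.1 had 15.1 ± 3.78 CPM in wild-type and 16.8 ± 2.83 CPM in mutant thalli (SD, n = 3), with no call (edgeR adjusted p = 0.53). Models of like layout and like Tak-1 level thus differed in the mutant, from none to an equal level.

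Mapoly0008s0097.v3.1 shared its 5 internal blocks, of 194, 104, 106, 159 and 48 bases, with 2 models that exceeded the limit for Mpbes1. Mapoly0063s0074.v3.1 had 340, 251 and 286 counts in Tak-1 and 3, 7 and 4 in Mpbes1 (log2 fold change -6.11, edgeR adjusted p = 2.7e-08). Mapoly0008s0109.v3.1 had 136, 73 and 75 counts against 0, 1 and 4 (log2 fold change -5.90, edgeR adjusted p = 4.6e-06). All models of this layout in the table, 3 of 3, had at most 7 counts in any Mpbes1 library. In the set with internal blocks of 284 and 77 bases, Mapoly0097s0012.v3.1 and Mapoly0097s0013.v3.1 stood beside Mapoly0023s0012.v3.1, which fell from 11.7 ± 1.14 to 7.50 ± 1.37 CPM (SD, n = 3; edgeR adjusted p = 0.0099), and 2 models without reads.

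**Figure D5:**
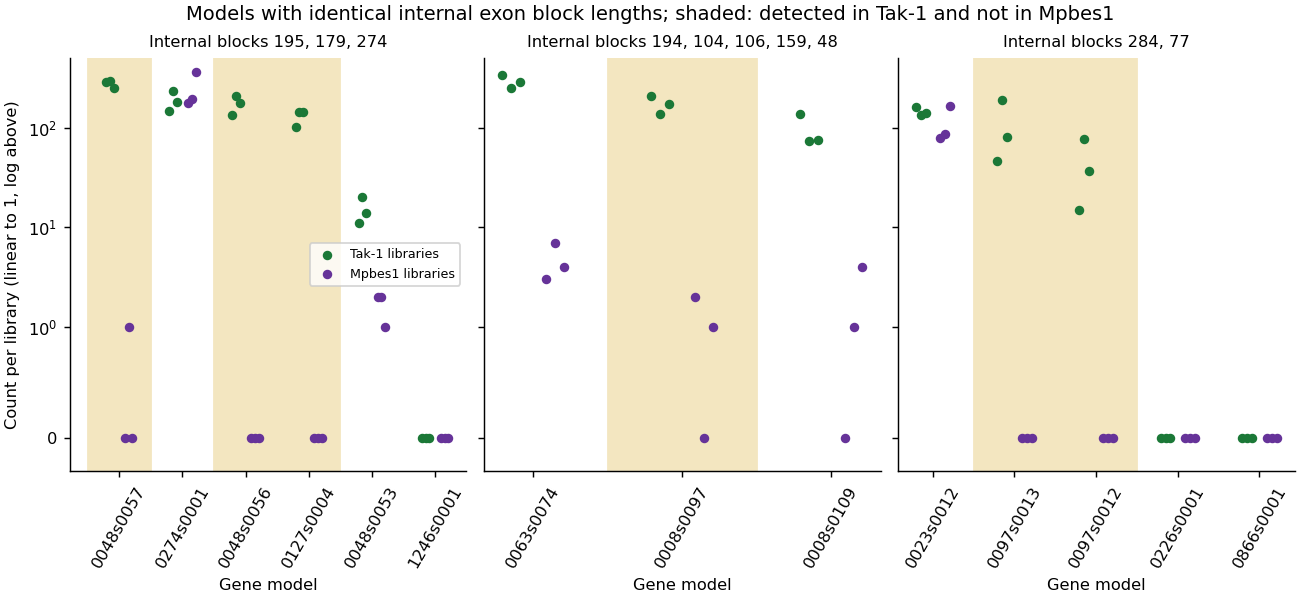
Counts per library, on an axis linear to 1 and logarithmic above, of all gene models that share the internal exon block lengths given over each panel, in Tak-1 (green) and Mpbes1 (purple); shading marks genes of the group of 72. Mapoly0274s0001.v3.1 and Mapoly0023s0012.v3.1 keep reads in all 6 libraries, while the 3 models of the middle panel have at most 7 counts in any Mpbes1 library.

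Other sets were larger and more mixed. Mapoly1410s0001.v3.1 had internal blocks of 192 and 166 bases, as did 29 other models, of which 15 were tested and 9 were lower and 4 higher in Mpbes1 by edgeR, against 21.1% and 19.3% of all genes tested. Among the 4 was Mapoly0141s0009.v3.1, which rose from 1.02 ± 0.47 to 7.63 ± 1.92 CPM (SD, n = 3; adjusted p = 3.7e-05). Mapoly0107s0020.v3.1 shared blocks of 296 and 141 bases with 9 models that ranged from no reads to 2634 ± 86.8 CPM in Tak-1 for Mapoly0041s0003.v3.1. That gene fell by 0.50 on the log2 scale (edgeR adjusted p = 0.00035). Among models of 1 block, exactly 1002 bases were found in Mapoly0084s0009.v3.1, in Mapoly0149s0005.v3.1 (45, 34 and 42 counts in Tak-1 and 0 in Mpbes1) and in 4 others, which had at most 1 count in any library.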

How the data were processed

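Poly(A) RNA of 6 thallus samples was sequenced. The authors deposited raw counts, as whole numbers with no normalization, in 1 table of gene models with a column for each sample, laid out as by featureCounts per the file headers. STAR 2.5.2b, featureCounts 1.5.1 and edgeR are named in the submitters' processing notes. The build, the strand setting and the handling of multiply aligned reads are not stated there. Coordinates, 1-based, and exon blocks come from the deposited table.

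Here, CPM are counts over TMM-scaled library sizes (edgeR 4.0.16 in R 4.3.3). All genes passing filterByExpr were fitted with edgeR's quasi-likelihood test (robust, genotype as the only term) and adjusted by Benjamini-Hochberg over the 12313 genes tested, with calls at an adjusted p under 0.05. The fit was tested on simulated data. DESeq2 1.42.0 was an alternative. Folds against 0 counts use 3 counts over the 3 Mpbes1 libraries, and ratios for 1 to 3 counts have exact 95% binomial intervals, which cover counting error only. No 2 libraries of a genotype agreed within counting noise (chi-square per degree of freedom 3.07 to 10.9).

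Members and lists were chosen with earlier results of these data known. Genes named are the 10 strongest by CPM, the 3 strongest per kilobase, adjacent members, extremes of spread and structure, and genes at the limits. Others, and all sets of like exon layout, were picked after their values were seen. The labels give no batch or date.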

Additional observations from a re-analysis of the deposited data

How the results depend on the processing

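Over 12 results there were 105 alternative values, of which 93 kept within 1.5 times of a reported count or within the spread of a reported level. The size of the group followed its limits: 29 genes with 0 counts in Mpbes1, 148 with up to 10, 35 with at least 30 counts in each Tak-1 library and 114 with at least 5. With at least 30 counts, 15 genes had 0 counts in Mpbes1 and 2 adjacent pairs were left of 6. Leaving out 1 library gave 69 to 94 genes, 29 to 35 of them at 0 in Mpbes1, and 6 or 7 adjacent pairs. Where an Mpbes1 library was left out, the limit was lowered to at most 2 counts over the 2 that remained. The median spread between Tak-1 plants was 15.8% to 26.2%, lowest without the first plant, and the median level 3.19 to 3.51 CPM. When a level of 5 CPM was required in 3 libraries, 532 genes were at least 2-fold lower instead of 882, and 10 neighbours instead of 16, because weak genes were not tested. With the nearest 2 models on each side, 44 of 143 neighbours were lower and 29 at least 2-fold. With 1 library left out, 25 to 27 direct neighbours were lower and 16 or 17 at least 2-fold. Layout matches, chosen after seeing the data, were found for 13 of 23 genes (56.5%) within 3 bases. Over all models with at least 4 blocks that share was 10.8%. With at least 5 blocks, matches were found for 5 of 14 genes, against 3.37% of all such models. Whether replicate numbers pair the samples was checked, and same-numbered deviations correlated at 0.17, -0.03 and 0.14, so no pairing was assumed. With the replicate block, 2755 genes were lower instead of 2597, 890 at least 2-fold, and 27 and 17 neighbours. Depth limits statements on Mpbes1 to levels above 0.0704 CPM over the group.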
